A study of Rattus norvegicus with 12 samples.

Results

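The miR-34 and miR-449 family was taken as every row of the deposited tables whose name, without species prefix and arm, was miR-34a, miR-34b, miR-34c, miR-449a, miR-449b or miR-449c. This gave 9 of the 648 mature miRNAs in the joined tables, both arms of a hairpin being counted apart. The small RNA libraries came from the stomach lining of rats, 4 in each of 3 groups. XLHZ rats had MNNG (N-methyl-N'-nitro-N-nitrosoguanidine, an alkylating mutagen) for 24 weeks and Xianglianhuazhuo formula, a herbal preparation, for 60 days. Model rats had MNNG for 24 weeks without the formula and stood for chronic atrophic gastritis, in which the stomach loses glands. The protocol for the gastritis model gives the chemical at 180 µg/ml as drinking water. It adds gavages of 2% sodium salicylate and a cycle of 2 fed days and 1 fasted day. This protocol was taken to hold for XLHZ and model rats alike, which are together called exposed. Exposure here is therefore not MNNG alone. Normal rats were labelled as untreated. No strain, sex or age was used here, and whether each library was 1 rat is not labelled. The p-values thus rest on the scatter among libraries of a group, which may be technical.

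Each library held 9094962 to 11556058 counts of mature miRNAs. CPM here is each count over its library total, scaled by TMM factors, so the libraries need not have equal sums. Glandular epithelial miRNAs (the miR-200 family and miR-375) were abundant in every library. Their summed levels were 84300 to 102000, 67000 to 96700 and 83000 to 100000 CPM in XLHZ, model and normal libraries. The smooth muscle miRNAs miR-143 and miR-145 summed to 97600 to 277000, 145000 to 404000 and 133000 to 219000 CPM in the same groups and were highest in model libraries 2 and 3. In bulk tissue, fewer cells of a type and less RNA per cell cannot be told apart.

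A miRNA hairpin is cut into a duplex of 2 mature strands, the 5p and the 3p arm. The guide strand is loaded into Argonaute and finds its target messages mainly through its seed, bases 2 to 8, while the other strand, the passenger, is mostly degraded. In human and mouse cells p53 switches on the miR-34a gene and the joint gene of miR-34b and miR-34c after DNA damage, and their guide strands lower cell cycle and survival proteins. The miR-34b, miR-34c and miR-449 genes are also known, from mouse and frog, for their high output in cells that build motile cilia.

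The sequences show which rows share a seed and which could share reads. All 9 rows had a mature sequence in RefSeq (rat build GRCr8). They are given 5′ to 3′ with the seed in capitals.
rno-miR-34a-5p: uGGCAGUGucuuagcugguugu
rno-miR-34b-5p: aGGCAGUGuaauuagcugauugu
rno-miR-34c-5p: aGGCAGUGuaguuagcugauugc
rno-miR-449a-5p: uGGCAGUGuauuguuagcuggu
rno-miR-449c-5p: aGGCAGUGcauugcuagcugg
rno-miR-34b-3p: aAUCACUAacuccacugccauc
rno-miR-34c-3p: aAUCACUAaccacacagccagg
rno-miR-34a-3p: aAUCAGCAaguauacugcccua
rno-miR-449a-3p: cAGCUAACaugcaacugcucuc
The 5 rows from the 5p arm had 1 seed, GGCAGUG, and among the 724 mature rat miRNAs in the RefSeq table no others had it. The miR-34b-3p and miR-34c-3p arms shared another seed, AUCACUA, with each other and with no other entry. They were identical over their first 10 bases and over 17 of 22 bases in all. miR-34c-5p and miR-34b-5p matched at 21 of 23 bases and differed by G11A and C23U (the base of miR-34c-5p, the position from its 5′ end, the base of miR-34b-5p). A read that ends before the last base therefore separates these rows by 1 base. How the authors' counting treated such reads is not given in these sources, so the split between miR-34b-5p and miR-34c-5p is uncertain to that extent. The 3p arms differ at 5 positions and are easier to tell apart.

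The hairpins of miR-34b (chr8:60306609-60306692, minus strand, GRCr8) and miR-34c (chr8:60306091-60306167, minus strand) lie 441 bases apart. RefSeq places miR-34c inside Hoatz, a gene that mouse studies link to motile cilia, and miR-34b across the end of Hoatz, next to Btg4. The hairpins are shown with both mature arms in capitals, since the comparison of these arms carries the main result.
miR-34b hairpin: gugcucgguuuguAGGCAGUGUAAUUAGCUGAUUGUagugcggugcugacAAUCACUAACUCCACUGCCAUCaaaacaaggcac
miR-34c hairpin: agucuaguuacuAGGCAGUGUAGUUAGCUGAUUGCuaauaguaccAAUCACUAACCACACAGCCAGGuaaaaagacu
miR-34a (chr5:165815952-165816053, plus strand) lies within a long non-coding RNA. The miR-449a hairpin (chr2:46403910-46404000, plus strand) and the miR-449c hairpin lie near Mcidas and Ccno, genes that drive the formation of multiciliated cells.

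Levels are given as CPM scaled by TMM factors over the 12 libraries, and a count is of a whole mature miRNA of 21 to 23 bases, so rows can be set beside each other without a length correction. No other difference in capture between sequences was corrected, so the order of rows and the arm shares are those of counts. miR-34a-5p was the most abundant row, with 387 ± 74.0, 846 ± 895 and 447 ± 201 CPM in XLHZ, model and normal libraries (mean ± SD, n = 4 in each group here and below), which made it rank 99, 80 and 96 of 648. miR-34c-5p followed with 104 ± 9.65, 237 ± 278 and 106 ± 13.3 CPM. miR-34b-5p had 31.9 ± 16.3, 20.3 ± 5.39 and 39.5 ± 39.3 CPM, and miR-449a-5p had 13.4 ± 1.55, 14.8 ± 6.46 and 11.2 ± 2.64 CPM. The order of these 4 means was the same in each group. In XLHZ libraries no neighbours in that order overlapped. Among model libraries the range of miR-34a-5p overlapped with that of miR-34c-5p, and miR-34b-5p with miR-449a-5p. Among normal libraries miR-34b-5p overlapped with both of its neighbours. Within single libraries the order held in each except model library 3. There miR-34b-5p (21.4 CPM) lay below miR-449a-5p (23.5 CPM). The 3p arms were rarer still, at 0.287 ± 0.278, 1.05 ± 0.622 and 6.94 ± 1.74 CPM for miR-34b-3p and 0.859 ± 0.458, 1.33 ± 0.991 and 3.96 ± 0.842 CPM for miR-34c-3p. The ranges of these neighbours overlapped in the exposed groups. In normal libraries the lowest miR-34b-3p value, 4.70 CPM, lay below the highest miR-34c-3p value, 4.87 CPM. Within each normal library, however, miR-34b-3p lay above miR-34c-3p, and within each XLHZ library below it. Model libraries were mixed.

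**Figure D1:**
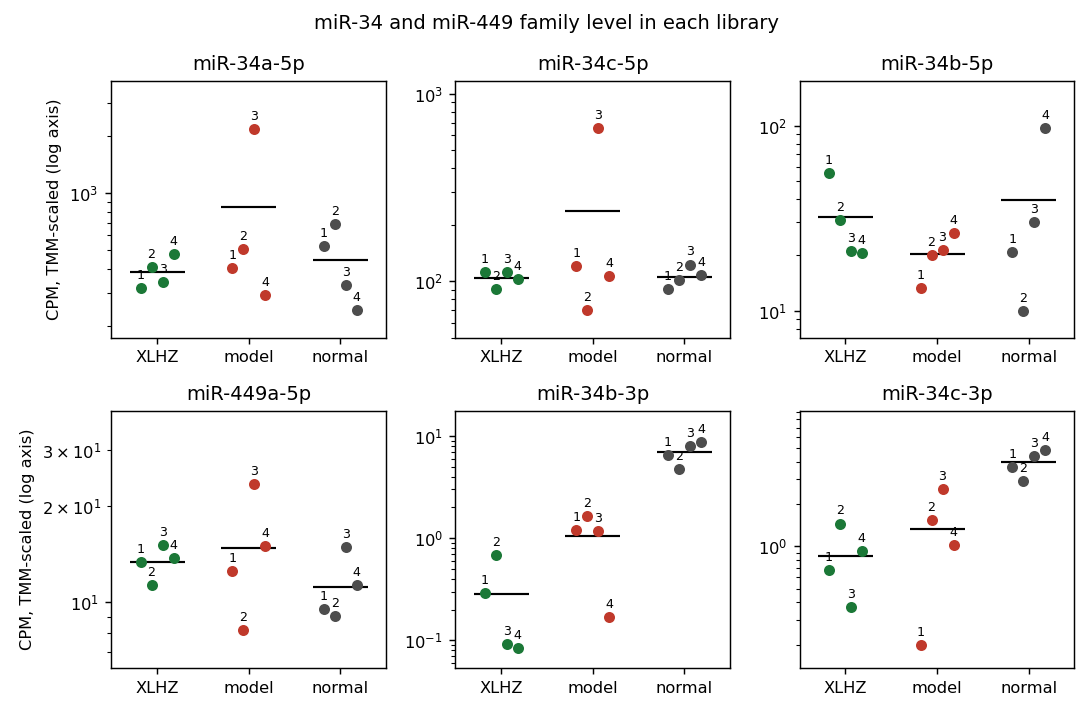
TMM-scaled CPM (log axis, its range differs between panels) of 6 family rows in each library, with XLHZ, model and normal from left to right, points numbered by replicate and a line at the group mean. Model library 3 stands above the rest for miR-34a-5p (2182 CPM) and miR-34c-5p (652.7 CPM), while for miR-34b-3p and miR-34c-3p all XLHZ and model points lie below all normal points.

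The 3p arms of miR-34b and miR-34c fell in XLHZ against normal mucosa. Both arms entered that test only through the counts of their normal libraries, a limit on its p-values that is taken up below. In model against normal mucosa neither passed, although no model library reached a normal one. The 5p arms of the same hairpins did not pass in any comparison. miR-34b-3p, the passenger arm of its hairpin, had 3, 7, 1 and 1 counts in XLHZ libraries 1 to 4, 12, 15, 11 and 2 counts in model libraries 1 to 4, and 65, 53, 89 and 103 counts in normal libraries 1 to 4. All 8 exposed libraries lay below all 4 normal libraries. In XLHZ against normal mucosa miR-34b-3p fell by 4.61 on the log2 scale (SE 0.50; adjusted p = 0.000770 by edgeR's quasi-likelihood method and Benjamini-Hochberg over 401 miRNAs). Model against normal mucosa gave -2.75 (SE 0.49, adjusted p = 0.0511 over 403 miRNAs), which just missed the threshold of 0.05 although the groups did not overlap. This p was 0.0571 with RLE, 0.0323 with upper-quartile factors, 0.0131 on library totals, 3.36e-06 with DESeq2 and 0.0583 with limma-trend, and without model library 4, which held 2 counts, it was 0.00590. It was 0.107 with the replicate number as a block. Both exposed groups together against normal gave -3.65 (SE 0.44, adjusted p = 0.000360, 1 fit of all 12 libraries).

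miR-34c-3p, the passenger arm of the neighbouring hairpin, had 7, 15, 4 and 11 counts in XLHZ libraries, 2, 14, 24 and 12 counts in model libraries, and 37, 33, 49 and 58 counts in normal libraries. Again every exposed library lay below every normal one, with model library 3 nearest. The fall in XLHZ against normal mucosa passed, at -2.22 on the log2 scale (SE 0.37, adjusted p = 0.0136). In model against normal mucosa it was -1.59 (SE 0.52, adjusted p = 0.498), and in both exposed groups against normal -1.89 (SE 0.41, adjusted p = 0.0585), neither of which passed. The XLHZ call ended in 1 fit of all 12 libraries (adjusted p = 0.143), with the replicate number as a block (0.139), without normal library 4 (just above 0.05) and without XLHZ library 1 (0.0571), the log2 fold change staying between -2.27 and -2.10 in these 4 fits. With both exposed groups against normal, 5 of 10 alternatives passed, with adjusted p of 0.00234 with DESeq2, 0.0220 on library totals, 0.0328 with upper-quartile factors, 0.0476 with no count filter and 0.0165 without model libraries 2 and 3. The other 5 gave up to 0.0799. Of the 12 omissions of 1 library, 2 passed (0.0294 without model library 1 and 0.0300 without model library 3), and the 12 ranged up to 0.272.

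In XLHZ against normal and in model against normal mucosa both arms passed the count filter only through their normal libraries, since neither exposed group had 4 libraries with enough counts, and miR-34b-3p did so with both exposed groups too. A row that passes in this way had to differ, and the edgeR p-values of these arms in those comparisons carry this limit. The counts of family rows below are descriptions and lend no support. With no count filter, edgeR gave adjusted p of 0.000193 for miR-34b-3p and 0.00970 for miR-34c-3p in XLHZ against normal. In model against normal it gave 0.0191 and 0.496. In XLHZ against normal mucosa 2 of the 6 family rows that passed the count filter were called lower, where 0.499% of 401 miRNAs were, so the family held both of the lower calls. All exposed libraries of a group lay below all normal ones for 2.24% of miRNAs in XLHZ and 1.99% in model mucosa. In model against normal mucosa 0 of 6 rows passed, against 0.248% of 403 miRNAs. At an unadjusted p under 0.05 there were 2 of 6, both lower, against 2.98% of all miRNAs that were lower, and DESeq2 called 1, miR-34b-3p. With both exposed groups against normal 1 of 6 was called lower, against 0.24% of 417. In that comparison 0.48% of the 417 miRNAs had every exposed library below every normal library, and these 2 miRNAs were miR-34b-3p and miR-34c-3p. The comparisons with normal mucosa share the same 4 normal libraries and are not independent.

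**Figure D2:**
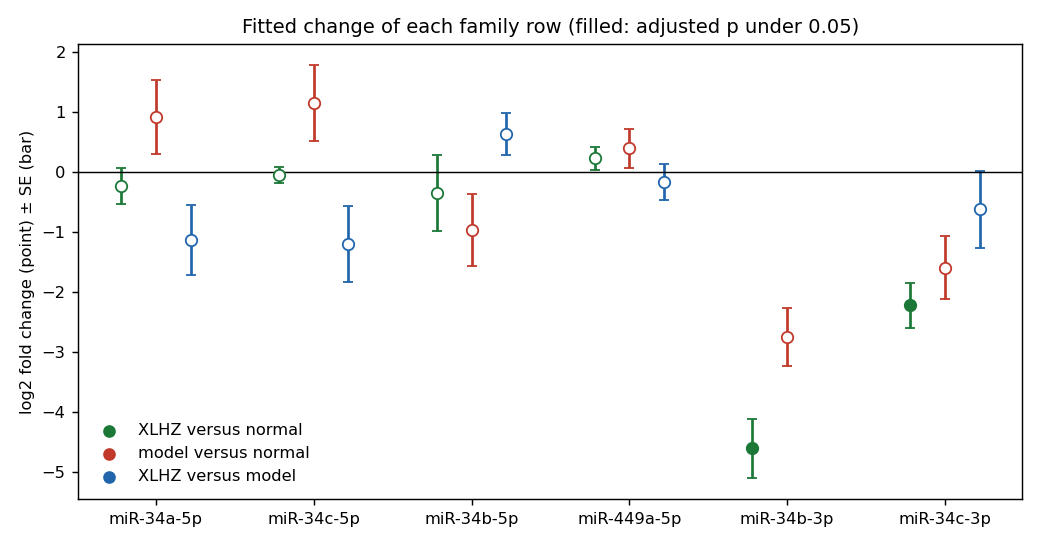
Log2 fold change with its SE from edgeR for 6 family rows in XLHZ versus normal, model versus normal and XLHZ versus model, filled where the adjusted p was under 0.05. The 2 filled points are miR-34b-3p (-4.61) and miR-34c-3p (-2.22) in XLHZ versus normal; miR-34b-3p was not tested in XLHZ versus model.

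**Figure D3:**
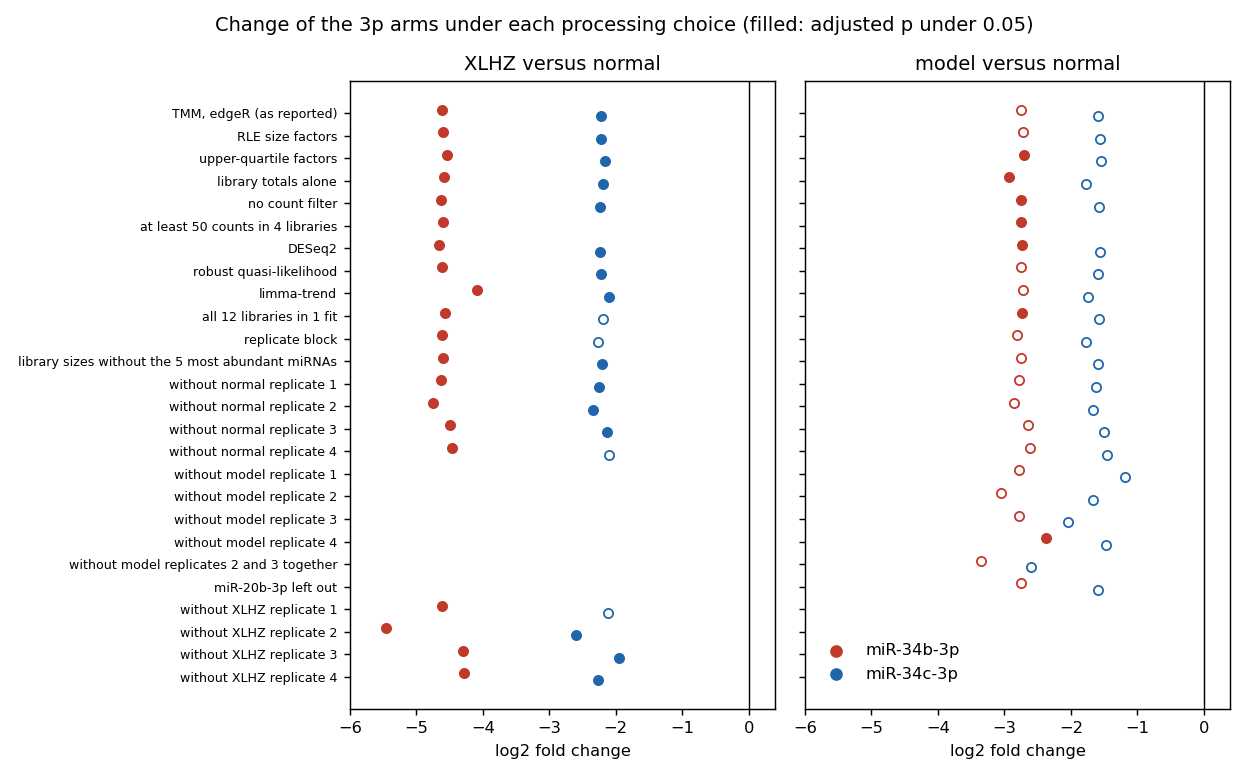
Log2 fold change of miR-34b-3p and miR-34c-3p in XLHZ versus normal (left) and model versus normal (right) under each processing choice, 1 line per choice, filled where the adjusted p was under 0.05. All points lie below 0, those of miR-34b-3p between -5.46 and -4.09 on the left and between -3.35 and -2.37 on the right.

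Between the exposed groups no family row passed. With XLHZ set against model mucosa 0 of the 5 rows tested passed in edgeR, where 0.249% of 402 miRNAs did. At an unadjusted p under 0.05 there were also 0 of 5, against 4.23% of all, and DESeq2 and limma-trend called 0. miR-34b-3p failed the count filter there. In the edgeR fit of all 12 libraries it stood at -1.84 on the log2 scale (SE 0.67, unadjusted p = 0.0167, adjusted p = 0.593). With no count filter edgeR gave -1.80 (SE 0.73, unadjusted p = 0.0293, adjusted p = 0.787). This row, left out of the 5, was thus under 0.05 before adjustment only. It had 12 counts in all in the 4 XLHZ libraries and 40 in the 4 model libraries. For miR-34c-3p the log2 fold change was -0.62 (SE 0.64, adjusted p = 0.819).

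miR-34a-5p, the p53-induced guide strand that gave the family its name as a tumour suppressor, had 3270, 4212, 3667 and 5678 counts in XLHZ libraries, 4038, 4630, 20394 and 3448 in model libraries, and 5274, 7781, 3690 and 2884 in normal libraries. Model library 3 stood far above the other 11, which overlapped between groups. The log2 fold change was -0.23 (SE 0.31, adjusted p = 0.809) in XLHZ against normal, 0.91 (SE 0.62, adjusted p = 0.662) in model against normal and -1.14 (SE 0.58, adjusted p = 0.729) in XLHZ against model. Without model library 3 the second value was -0.10 and the third also -0.10.

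miR-34c-5p, the guide strand of the miR-34c hairpin, followed the same library. It had 1150, 938, 1195 and 1206 counts in XLHZ libraries, 1199, 638, 6101 and 1263 in model libraries, and 909, 1143, 1378 and 1282 in normal libraries. Apart from model library 3 the groups overlapped. In XLHZ against normal mucosa, where neither group holds that library, the log2 fold change was -0.06 (SE 0.13, adjusted p = 0.914), the smallest SE of the family. Its sign turned with upper-quartile factors (0.029) and on library totals (0.0040). In model against normal mucosa it was 1.15 (SE 0.63, adjusted p = 0.642), and without model library 3 it was -0.051. Against model mucosa XLHZ gave -1.20 (SE 0.64, adjusted p = 0.729), and 0.016 without that library.

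In model library 3 miR-34c-5p stood 6.11-fold and miR-34a-5p 5.40-fold above the median of the other 3 model libraries, rank 4 and 6 of 401 miRNAs with a mean of at least 10 counts. miR-449a-5p stood 1.88-fold and miR-34c-3p 2.53-fold above it, while miR-34b-5p (1.06-fold) and miR-34b-3p (0.980-fold) did not stand out. The unfiltered miR-34a-3p, passenger of miR-34a, had its highest count there too, 25 against 2, 7 and 2 in the other model libraries. The largest ratio in that library was that of miR-122-5p, a liver miRNA singled out after its values were seen, at 44.6-fold. Its counts were 223, 18, 544 and 46 in XLHZ, 21, 20, 912 and 532 in model, and 80, 29, 126 and 49 in normal libraries. Its part in the miR-34 values was not tested.

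miR-34b-5p, whose counts can be shared with miR-34c-5p, had 571, 319, 227 and 241 counts in XLHZ libraries, 133, 184, 200 and 312 in model libraries, and 208, 113, 338 and 1157 in normal libraries. Normal library 4 and XLHZ library 1 were high, and the groups overlapped. Normal library 4 stood 4.68-fold above the median of the other normal libraries, rank 1 of 401 miRNAs, while miR-34c-5p was 1.06-fold and miR-34b-3p 1.33-fold there. The log2 fold change was -0.35 (SE 0.64, adjusted p = 0.859) in XLHZ against normal, -0.96 (SE 0.60, adjusted p = 0.642) in model against normal and 0.63 (SE 0.35, adjusted p = 0.729) in XLHZ against model. Without normal library 4 the first was 0.63 and the second 0.027.

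miR-449a-5p, which shares the miR-34a seed and marks multiciliated cells, varied least of the tested family rows over all 12 libraries (SD of log2 CPM 0.39). Without model library 3 miR-34c-5p varied less, with an SD of 0.22 against 0.29 for miR-449a-5p. miR-449a-5p had 138, 117, 162 and 162 counts in XLHZ libraries, 125, 75, 220 and 177 in model libraries, and 95, 102, 167 and 135 in normal libraries, and the groups overlapped. The log2 fold change was 0.23 (SE 0.19, adjusted p = 0.730) in XLHZ against normal, 0.39 (SE 0.32, adjusted p = 0.728) in model against normal and -0.16 (SE 0.30, adjusted p = 0.911) in XLHZ against model. The other 3 rows were near the limit of detection and failed the filter. miR-34a-3p summed to 19, 36 and 26 counts over the XLHZ, model and normal libraries and miR-449c-5p to 3, 5 and 2. miR-449a-3p, passenger of miR-449a, had 0 counts in each XLHZ library, which allows up to 3 counts in each (counting error only), and 1 count in each of the other groups.

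Because 2 arms come from 1 hairpin and are counted in 1 library, their ratio needs no scaling between libraries. The 3p arm made up 0.880 ± 0.846% of the miR-34b counts in XLHZ, 5.42 ± 3.44% in model and 21.2 ± 9.86% in normal libraries. The lowest normal library, number 4 with 8.18%, lay just under the highest model library, number 1 with 8.28%. For miR-34c the 3p arm made up 0.854 ± 0.533% in XLHZ, 0.912 ± 0.886% in model and 3.62 ± 0.654% in normal libraries, with no overlap between exposed and normal. For miR-34a it was 0.119 ± 0.0685%, 0.0952 ± 0.0494% and 0.120 ± 0.0713%, and the groups overlapped.

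**Figure D4:**
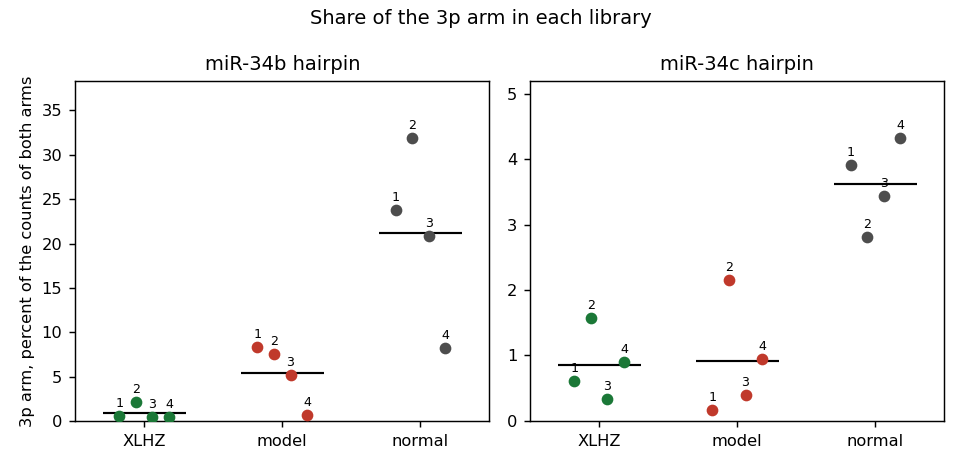
Counts of the 3p arm as a percent of both arms for the miR-34b hairpin (left) and the miR-34c hairpin (right), with XLHZ, model and normal from left to right, points numbered by replicate and a line at the group mean. The normal points are highest in both panels (21.2% and 3.62% on average), with 1 normal point, 8.18%, level with the upper model points for miR-34b.

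The log2 ratio of miR-34c-3p to miR-34c-5p (pseudocount of 0.5 counts) averaged -6.99 ± 0.90 in XLHZ and -4.74 ± 0.28 in normal libraries, a difference of -2.25. It averaged -7.25 ± 1.51 in model libraries, a difference of -2.51 from normal. Both gave p = 0.0286 in a two-sided exact permutation test, the smallest that 4 against 4 libraries allow, and an adjusted p of 0.0571 over 6 arm ratios. For miR-34b the ratio averaged -6.83 ± 0.95 in XLHZ, -4.52 ± 1.66 in model and -2.04 ± 1.02 in normal libraries. The difference was -4.80 in XLHZ against normal (exact permutation p = 0.0286, adjusted 0.0571), -2.48 in model against normal (exact permutation p = 0.0571, adjusted 0.0686) and -2.32 in XLHZ against model (exact permutation p = 0.0571, adjusted 0.0686). Between XLHZ and model the miR-34c ratio differed by 0.26 (exact permutation p = 0.80). With 8 exposed against 4 normal libraries, chosen after seeing the data, the differences were -3.64 for miR-34b and -2.38 for miR-34c (exact permutation, adjusted p = 0.00808 for both). These joined p-values follow from the separation already seen in each group and lend no further support.

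Against miR-34a-5p, which comes from another chromosome, no ratio of a 3p arm passed after adjustment in XLHZ or in model mucosa alone, although none overlapped with normal. The log2 ratio of miR-34b-3p to miR-34a-5p differed by -4.62 in XLHZ against normal and by -3.52 in model against normal, and that of miR-34c-3p by -2.16 and -2.49. Each of these 4 ratios showed no overlap between groups and had the smallest exact permutation p, 0.0286, with an adjusted p of 0.0857 over 12 ratios. With both exposed groups against normal, joined after seeing the data, the differences were -4.07 and -2.32 (exact permutation, adjusted p = 0.00808 over 4 ratios). As neither exposed group overlapped with normal in these 2 ratios, the joined p could only be the smallest possible, 0.00404. It lends no further support. For the guide strand miR-34c-5p the ratio to miR-34a-5p differed by 0.092 in XLHZ against normal (exact permutation p = 0.83) and by 0.023 in model against normal (exact permutation p = 1.0). For miR-34b-5p the ratio differed by 0.18 (exact permutation p = 0.914) and -1.04 (exact permutation p = 0.371).

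The shift between arms was set beside that of every hairpin with both arms tested. In XLHZ against normal mucosa the fitted log2 fold change of the 3p arm minus that of the 5p arm had a median of -0.016 over 123 hairpins, with quartiles of -0.20 and 0.12. miR-34b (-4.26) and miR-34c (-2.17) were the lowest of the 123, followed by the erythroid miR-144 (-2.07). In both exposed groups against normal they were again the lowest of 128 (-3.04 and -2.45). For model against normal mucosa miR-34c was lowest of 125 (-2.75) and miR-34b the third lowest (-1.79). These 2 values leaned on single libraries, some of them through the 5p arm. Without model library 3 miR-34c stood at -1.999, and without normal library 4 miR-34b stood at -2.64, while without model library 4 miR-34b stood at -1.25. Over the 8 omissions of 1 library miR-34c ran from -3.13 to -1.999 and miR-34b from -2.64 to -1.25, each among the 3 lowest hairpins every time. The log2 arm ratios within libraries ran from -3.10 to -1.96 for miR-34c and from -2.96 to -1.67 for miR-34b over the same omissions. Between XLHZ and model mucosa miR-34c stood at 0.58, where the median of 126 hairpins was 0.0058. It ran from -0.157 (without model library 3) to 0.948 over the 8 omissions. miR-34b was not ranked there, since its 3p arm failed the count filter. In 5 omissions that arm entered, through its model libraries, and miR-34b was the lowest hairpin each time, at -3.33 to -2.09. Where the 3p arms of miR-34b and miR-34c passed the count filter only through their normal libraries, as given above, a low rank was partly built in. These ranks describe the libraries and carry no test.

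**Figure D5:**
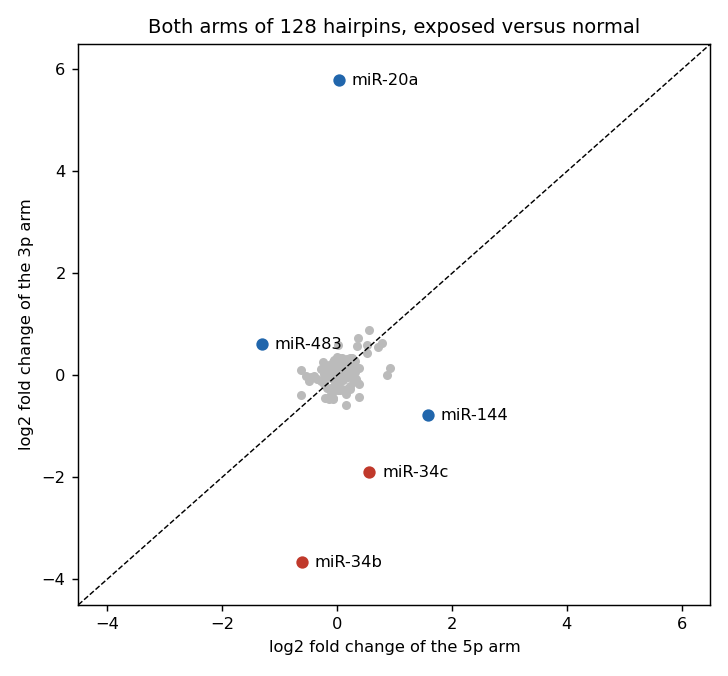
Log2 fold change of the 3p arm against that of the 5p arm for the 128 hairpins with both arms tested in both exposed groups versus normal, with the line of equal change. Most points lie near 0, and miR-34b and miR-34c lie below the line by 3.04 and 2.45.

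Marker miRNAs of cell types were summed by list, and exposed and normal libraries were compared for overlap. Overlap of these sums does not show equal cell content. For 0 of 9 marker lists (smooth muscle, striated muscle, neurons, squamous and glandular epithelium, leukocytes, erythroid cells, endothelium and the miR-449 rows) did the summed level set all exposed libraries apart from all normal ones. The miR-449 rows summed to 11.3 to 15.1, 8.20 to 23.9 and 9.23 to 14.9 CPM in XLHZ, model and normal libraries. The list medians in model against normal mucosa ran from -0.61 (squamous epithelium, 3 tested) to 0.90 (striated muscle, 7 tested) on the log2 scale, with that of all miRNAs at -0.0072. In XLHZ against normal they ran from -0.62 (squamous epithelium, 3 tested) to 0.74 (erythroid, 4 tested), with that of all miRNAs at -0.0040. The 2 most abundant members of each list outside the family were miR-143-3p and miR-145-5p (smooth muscle), miR-1b and miR-133a-3p (striated muscle), miR-9a-5p and miR-128-3p (neurons), miR-205 and miR-203a-3p (squamous), miR-200a-3p and miR-200b-3p (glandular), miR-142-3p and miR-150-5p (leukocytes), miR-486 and miR-451-5p (erythroid) and both arms of miR-126a (endothelium). Their log2 fold changes ran from -0.62 (miR-203a-3p) to 1.07 (miR-451-5p) in XLHZ and from -0.61 (miR-203a-3p) to 0.90 (miR-1b) in model against normal. Of the tested members 1 passed, the erythroid miR-144-5p, higher in XLHZ against normal, where 1.5% of 401 miRNAs passed in either direction. Without model libraries 2 and 3, which were richest in muscle miRNAs, the model against normal log2 fold changes were -3.35 for miR-34b-3p (adjusted p = 0.107) and -2.60 for miR-34c-3p (adjusted p = 0.182).

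Of other miRNAs reported to respond to p53, a single row passed. Of all miRNAs, 1.5% of 401 passed in XLHZ and 0.248% of 403 in model against normal, in either direction. At these shares lists of this size would hold few or no calls, so their counts describe the lists only. Of 25 rows reported as raised by p53 (miR-192, miR-194, miR-215, miR-143, miR-145, miR-107, miR-15a, miR-16, miR-22 and the miR-200 family), 22 were tested against normal in each exposed group and 0 passed. Of the 25, 4 are also in the smooth muscle list and 9 in the glandular list. Their median log2 fold changes were -0.013 in XLHZ and 0.064 in model mucosa, where those of all miRNAs were -0.0040 and -0.0072. The abundant miR-16-5p, a cell cycle regulator, had 32880 ± 1690, 33180 ± 6022 and 32610 ± 1643 CPM in XLHZ, model and normal libraries. miR-143-3p, the most abundant of the list, had 154400 ± 69610, 242600 ± 103400 and 157400 ± 36860 CPM. Of 13 rows of the miR-17-92 cluster, which p53 is reported to repress, 11 were tested in each of these comparisons, with medians of 0.10 and 0.11. The 1 that passed, in both comparisons, was the minor arm miR-20a-3p, at 24.1 ± 4.48, 54 ± 62.2 and 0.631 ± 0.124 CPM. With 6, 7, 9 and 6 counts in normal libraries it passed the count filter only through exposed libraries, so its edgeR p-values carry the same limit. Its model counts were 284, 166, 1375 and 264, the mean leaning on library 3. miR-19b-3p and miR-20a-5p, the most abundant of these rows, had log2 fold changes of 0.10 and -0.034 in XLHZ and 0.11 and 0.075 in model mucosa.

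Profiles over the 12 libraries were compared by the root mean square difference of log2 CPM after centring, among 401 miRNAs with a mean of at least 10 counts. miR-34c-3p was the nearest to miR-34b-3p (difference 1.16, where miR-34b-3p itself had an SD of 1.82), ahead of miR-193a-5p (1.53) and miR-1306-5p (1.57). Seen from miR-34c-3p (SD 1.15) no miRNA was close, the nearest being miR-27a-5p (0.98), miR-193a-5p (0.98) and miR-203a-3p (0.99). miR-34a-5p (SD 0.79) was nearest to miR-21-5p (0.46), miR-135b-5p (0.53) and miR-187-3p (0.54). Of these, miR-21-5p had 92540 CPM in model library 3 and at most 45030 CPM in any other library. miR-34c-5p (SD 0.77) was nearest to miR-192-3p (0.44), miR-215 (0.46) and miR-21-3p (0.47), and miR-34b-5p (SD 0.82) to miR-328a-3p (0.57), miR-210-5p (0.62) and miR-351-5p (0.66). The neighbours of miR-34a-5p and miR-34c-5p all peaked in model library 3, and their likeness rests on it. Without that library the SD fell to 0.42 for miR-34a-5p and 0.22 for miR-34c-5p, miR-21-5p, miR-187-3p and miR-135b-5p took ranks 10, 82 and 187 for miR-34a-5p, and miR-192-3p, miR-21-3p and miR-215 took ranks 31, 242 and 255 for miR-34c-5p. The nearest were then miR-382-3p (0.26) for miR-34a-5p and miR-200a-5p (0.084) for miR-34c-5p. Without normal library 4, where miR-34b-5p was highest, its nearest was miR-15a-5p (0.42), and miR-328a-3p took rank 12. miR-34c-3p remained nearest to miR-34b-3p without either library (1.18 and 1.17). miR-449a-5p (SD 0.39) had the closest neighbours of the family, miR-194-5p (0.16), miR-192-5p (0.17) and miR-18a-5p (0.18).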

How the data were processed

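Total RNA from 12 gastric mucosa libraries was sequenced after preparation with a QIAseq kit, per the labels' protocols. The authors deposited raw counts of each mature miRNA and, per the file headers, CPM columns, which equal the count over the column total (largest difference 5.0e-05) and served for that check. Per the submitters' processing notes, Bowtie and DESeq were used (no version stated). The sources used here do not state the build, the counting rule or any use of molecular identifiers.

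The 2 tables (639 and 632 miRNAs) were joined by name. miR-20b-3p, whose model counts differ between them, was left out of the joined table. The 27 miRNAs present in 1 table (at most 3 counts) were taken as 0 in the other. Columns were matched by the labelled descriptions. Libraries of a group all differed by more than sampling noise (lowest chi-square over its degrees of freedom, 172).

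XLHZ versus normal was fitted on its 8 joined libraries, the other pairs on their own table, and both exposed groups versus normal on all 12, with edgeR 4.0.16 under R 4.3.3 (quasi-likelihood, TMM, filterByExpr at 10 counts). Benjamini-Hochberg adjustment covered every miRNA tested, with a threshold of 0.05, and SE is the log2 fold change over the square root of F. Alternatives used limma 3.58.1, DESeq2 1.42.0 and others given at the end. Ratios within a library used exact permutation tests (scipy 1.17.1). The fit was tested on simulated counts. Named miRNAs are all family rows, the 3 nearest profiles of each, the 2 most abundant members of each list and list members that passed. Members and lists were chosen with earlier results of these data known. Whether the numbers in the titles pair the libraries is not labelled, and the correlations do not settle it. Deviations of same-numbered libraries correlated from -0.328 to 0.463. Replicate 2 was its own best partner in every pair of groups (0.331, 0.463 and 0.184), replicates 1 and 4 in none. The main fits used no block.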

Additional observations from a re-analysis of the deposited data

Results flagged for a closer look

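In 2 of 18 groups of 4 libraries, 1 library stood apart from the other 3 by more than Dixon's 95% limit for the gap over the range, and chance gives about 1 in 20. Both were model library 3. miR-34a-5p measured 2182 CPM there, where the next model library had 506 CPM (gap over range 0.886). miR-34c-5p measured 652.7 CPM, where the next had 119.9 CPM (0.914). The cause was not tested.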

How the results depend on the processing

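The lower miR-34b-3p in XLHZ against normal passed under every alternative run there, the 8 single omissions included (log2 fold changes -5.46 to -4.29 without 1 library). With the replicate number as a block its adjusted p was 0.0346. Whether the shared numbers pair the libraries was not settled (correlations of deviations from -0.328 to 0.463). The block gave 1 lower call of any miRNA in XLHZ against normal, where the fit without it gave 2. With both exposed groups against normal the block gave 2 higher calls, where the fit without it gave 1. In model against normal the miR-34b-3p call also appeared with no filter on low counts (0.0191), with 4 libraries of at least 50 counts required (0.0493) and in the fit of all 12 (0.0213). Single omissions gave log2 fold changes of -3.05 to -2.37 and adjusted p of 0.00590 to 0.202.

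Counts of calls were small and moved with the settings. For model against normal (1 higher, 0 lower) there were 2 higher with no count filter, 5 with DESeq2 and 3 in the fit of all 12, and 1 lower with upper-quartile factors, library totals, no filter, at least 50 counts or the fit of all 12, and 2 with DESeq2. For XLHZ against normal (4 higher, 2 lower) the fit of all 12 gave 1 and 1, and at least 50 counts gave 1 lower. With both exposed groups (1 higher, 1 lower) 3 were higher with upper-quartile factors, library totals or no filter and 5 with DESeq2, and 2 were lower in each of these 4. Without 1 library the higher and lower counts ran from 1 to 3 and 0 to 1 in model against normal, 2 to 4 and 1 to 3 in XLHZ against normal, and 1 to 3 and 1 to 2 with both exposed groups. In XLHZ against model the higher count ran from 0 to 1.

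Log2 fold changes that did not pass turned sign in places, and the cause was not tested. Set against normal, XLHZ gave miR-34b-5p at 0.035 with limma-trend and 0.069 with the replicate block, and miR-34c-5p at 0.029 with upper-quartile factors and 0.004 on library totals. Between XLHZ and model miR-449a-5p was 0.02 on library totals. Without model libraries 2 and 3, chosen after seeing the data, miR-34a-5p was 0.106 in XLHZ against model, -0.334 in model against normal and -0.281 with both exposed groups, and miR-34c-3p was 0.395 in XLHZ against model. There were then 0 higher calls in XLHZ against model and, with both exposed groups, 3 higher and 2 lower. Without 1 library miR-34a-5p ran from -0.103 to 1.227 in model against normal, -0.426 to 0.056 in XLHZ against normal and -0.122 to 0.659 with both exposed groups. In the same order miR-34b-5p ran from -1.244 to 0.027, -0.73 to 0.628 and -0.967 to 0.371, and miR-34c-5p from -0.051 to 1.463, -0.113 to 0.071 and -0.018 to 0.719. Between XLHZ and model miR-34c-5p ran from -1.477 to 0.016 and miR-449a-5p from -0.351 to 0.113.

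Among the ratios, those of the 3p arms passed once both exposed groups were joined (-4.07 and -2.322 to miR-34a-5p, -3.638 and -2.38 to the own 5p arm), since 12 libraries allow a smaller p. The joining was chosen after seeing the data, and these passes lend no further support. The ratio of miR-34b-5p to miR-34a-5p was then -0.432, and without 1 library it ran from -0.559 to 1.035 in XLHZ against normal. The ratio of miR-34c-5p to miR-34a-5p ran from -0.234 to 0.236 in XLHZ against model, -0.173 to 0.36 in XLHZ against normal and -0.241 to 0.326 in model against normal. Between XLHZ and model miR-34c-3p ran from -0.159 to 0.691 to miR-34a-5p and from -0.293 to 0.855 to its 5p arm.

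The 3p arms rest on 1 to 103 counts a library in the 12 libraries, so the size of their changes is imprecise. Omitting libraries from the arm differences of all hairpins and from the profile comparison was chosen after seeing the data. DESeq2 gave no adjusted p for miR-34c-5p in model against normal and in XLHZ against model.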

Other observations

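The hairpins with the widest shifts between arms in both exposed groups against normal were, beside miR-34b and miR-34c, those of miR-20a (3p minus 5p of 5.76 on the log2 scale), miR-144 (-2.36) and miR-483 (1.93). In the miR-144 and miR-483 hairpins the arms had fitted log2 fold changes of opposite sign: 1.59 for the 5p and -0.77 for the 3p arm of miR-144, and -1.31 for the 5p and 0.62 for the 3p arm of miR-483. They were picked after their values were seen, and these values carry no test.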
